A study of Homo sapiens and Mus musculus with 25 samples.

Results

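Mono- and dimethylation of histone H3 lysine 4, H3K4me1 and H3K4me2, were compared away from promoters in K562, an established human cell line from a chronic myeloid leukaemia that carries an erythroid programme. The assay was internally calibrated ChIP-seq (ICeChIP-seq), in which barcoded semi-synthetic nucleosomes are added to the chromatin so that capture can be put on a scale of modification density. From the 25 samples of the series, the 9 libraries labelled K562 with an H3K4me1 or an H3K4me2 antibody were chosen by that label. H3K4me1 was captured with 5 antibodies, from Abcam (ab8895), from Active Motif (39635), from Cell Signaling Technologies (5326 BF), from EpiGentek (A-4031-050) and from Thermo Fisher (710795). H3K4me2 was captured with 4, from Abcam (ab7766), from Cell Signaling Technologies (9725), from EMD Millipore (05-1338) and from Thermo Fisher (710796). The cells were untreated, and the libraries had 8 amplification cycles except that of EMD Millipore 05-1338, which had 12. One antibody gave 1 value, so errors and p-values measure how far antibodies differ; nothing in the labels says that they came from separate cultures. "Distal" means more than 5 kb from every GENCODE protein-coding transcription start site (TSS) on chromosomes 1 to 22 and X of hg38, and a "piece" is a stretch of merged peak that lies there. This distal territory spanned 2624 Mb, or 90.1% of the known bases. Read depth cannot be read from the peak lists, so a base without a peak is not shown to lack the mark. A value also averages over cells, and fewer cells with a mark cannot be told apart from a lower density in each.

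Methyl groups are added to H3K4 one after another. MLL3 and MLL4 (KMT2C and KMT2D) place much of the H3K4me1 at enhancers, the SET1 and MLL1/2 complexes bring promoters to H3K4me3, KDM1A removes mono- and dimethylation, and the KDM5 enzymes remove di- and trimethylation. H3K4me1 is known as a broad mark of primed and active enhancers and of the shoulders of promoters. H3K4me2 lies between it and H3K4me3, at enhancers as well as at the flanks of promoters.

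Distal regions of 3 kinds show what the lists shared and where they parted. The 9 lists held in common 56933 regions, 45.5 Mb in all, with a median width of 581 bases. Regions in all 5 H3K4me1 lists and no H3K4me2 list numbered 5016 but summed to 0.638 Mb, with a median width of 86 bases. The reverse class, in all 4 H3K4me2 lists and no H3K4me1 list, had 152 regions over 0.0836 Mb. Windows of 300 bases at the centre of each region at least that long were read from hg38 to show the sequence. The windows printed, 1 a class, are among the 3 with the highest mean rank of the authors' value in their class. They are on the plus strand and outside exons, with CpG dinucleotides in capitals because their mean number differed between the classes. The 3 windows of a class differed widely: 2, 6 and 12 CpG in the shared class, 11, 15 and 3 with H3K4me1 alone, and 17, 18 and 4 with H3K4me2 alone. Those printed hold the lowest, the lowest and the highest of these counts, so they do not stand for their classes.

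Shared by all 9 lists was an intron of RCL1 (chr9:4799235-4799534, 2 CpG).
RCL1 intron: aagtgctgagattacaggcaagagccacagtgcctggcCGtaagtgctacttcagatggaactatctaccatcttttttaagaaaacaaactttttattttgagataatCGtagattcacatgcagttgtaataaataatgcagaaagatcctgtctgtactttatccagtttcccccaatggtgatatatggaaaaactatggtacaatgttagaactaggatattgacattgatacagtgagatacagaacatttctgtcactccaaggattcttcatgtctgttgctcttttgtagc

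Held by all 5 H3K4me1 lists and no H3K4me2 list was an intron of LRRC75A (chr17:16483499-16483798, 3 CpG).
LRRC75A intron: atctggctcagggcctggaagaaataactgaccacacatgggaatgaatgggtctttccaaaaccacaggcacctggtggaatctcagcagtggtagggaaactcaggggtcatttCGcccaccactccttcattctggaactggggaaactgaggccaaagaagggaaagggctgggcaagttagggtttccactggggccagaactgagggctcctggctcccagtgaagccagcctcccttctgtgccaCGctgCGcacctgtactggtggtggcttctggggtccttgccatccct

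Held by all 4 H3K4me2 lists and no H3K4me1 list was an intergenic window 5.87 kb from a FOXJ2 start site (chr12:8026698-8026997, 18 CpG).
near FOXJ2: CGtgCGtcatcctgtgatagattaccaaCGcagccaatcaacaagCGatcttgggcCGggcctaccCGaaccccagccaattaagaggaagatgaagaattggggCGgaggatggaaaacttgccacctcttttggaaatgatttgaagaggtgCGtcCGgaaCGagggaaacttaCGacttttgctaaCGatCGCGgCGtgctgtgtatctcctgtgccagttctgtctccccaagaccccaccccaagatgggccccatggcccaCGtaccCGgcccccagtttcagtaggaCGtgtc

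The RCL1 window lay in a region 2809 bases wide. Values of different lists are printed as deposited and are not compared, since their unit is not stated. At this window the authors' value was 39.4 for ab8895, 46.3 for Active Motif 39635, 39.3 for Cell Signaling Technologies 5326 BF, 39.4 for EpiGentek A-4031-050 and 35.1 for Thermo Fisher 710795, and it was 49.2 for ab7766, 38.2 for Cell Signaling Technologies 9725, 28 for EMD Millipore 05-1338 and 38.1 for Thermo Fisher 710796. The LRRC75A window had 28.1 for ab8895, 32.9 for Active Motif 39635, 28.4 for Cell Signaling Technologies 5326 BF, 17.4 for EpiGentek A-4031-050 and 21.4 for Thermo Fisher 710795. The window near FOXJ2 had 42.8 for ab7766, 36.7 for Cell Signaling Technologies 9725, 30.0 for EMD Millipore 05-1338 and 46.9 for Thermo Fisher 710796. The window near FOXJ2 lay in a region held by at least 4 of the 8 H3K4me3 lists of the series, whereas the RCL1 and LRRC75A windows did not. The top windows not printed did not all follow this contrast. A shared window near SECTM1 lay in such a region, and an H3K4me2-alone window near HSPA6 did not.

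Over all such windows, GC content was 45.8% in the 351 windows of H3K4me1 alone, 51.2% in the 77 of H3K4me2 alone and 46.6% in the 44434 of the shared class, against 40.3% in 261615 windows set every 10 kb along the distal territory. CpG averaged 4.78 a window with H3K4me1 alone, 11.6 with H3K4me2 alone and 5.15 in the shared class, against 2.71 along the territory. The classes also differed in H3K4me3. Regions held by at least 4 of the 8 H3K4me3 lists took 52.3% of the H3K4me2-alone bases, 0% of the H3K4me1-alone bases and 13.7% of the shared bases. Whether the GC and CpG contrast holds outside those regions was not tested. AGATAA, the core site of the erythroid GATA factors, was searched on both strands. It was in 14.0% of H3K4me1-alone windows, 13.0% of H3K4me2-alone windows and 25.5% of shared windows, against 21.4% along the territory. The AP-1 word TGANTCA was in 8.83%, 10.4% and 16.1% of these classes in the same order, against 9.21%. The joint E-box and GATA motif of erythroid enhancers, CTG followed after 8 bases by AGATAA and thus a subset of the GATA matches, was in 0.855% of H3K4me1-alone windows and 1.32% of shared windows, against 0.377% along the territory. None of the 77 H3K4me2-alone windows held it, which allows a share of up to 3.90%. A word of the Alu repeat, CCTGTAATC, was in 17.1% of H3K4me1-alone windows, 5.19% of H3K4me2-alone windows and 6.98% of shared windows, against 7.53% along the territory. A match is a description of the letters, not a binding site.

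Distal covered length varied more between antibodies than between the marks. Among the H3K4me1 lists, ab8895 covered 898 Mb, Active Motif 39635 covered 1395 Mb, Cell Signaling Technologies 5326 BF 941 Mb, EpiGentek A-4031-050 800.1 Mb and Thermo Fisher 710795 579.6 Mb. Of the H3K4me2 lists, ab7766 covered 829 Mb, Cell Signaling Technologies 9725 covered 1280.5 Mb, EMD Millipore 05-1338 only 63.4 Mb and Thermo Fisher 710796 408 Mb. The groups overlapped, since ab7766 and Cell Signaling Technologies 9725 each exceeded 2 or more H3K4me1 lists. H3K4me1 averaged 923 ± 299 Mb (SD, n = 5) and H3K4me2 645 ± 527 Mb (SD, n = 4), a difference of 278 Mb that did not pass (exact two-sided permutation test, p = 0.325, adjusted p = 0.759 over 14 measures). The difference was 83.6 Mb without EMD Millipore 05-1338 and 489 Mb without Cell Signaling Technologies 9725. Deposited files carry a number in their names, 2, 3 or 5 for these lists, whose meaning is not given. Compared within that number, the mean difference was 493 Mb, with exact permutation p = 0.037, the smallest that 27 regroupings allow, and adjusted p = 0.0864. EMD Millipore 05-1338 was the only H3K4me2 list with number 2, Thermo Fisher 710796 the only one with 5, and Active Motif 39635 the only H3K4me1 list with 3. These lists thus weigh more here than in the plain means. How far values within the number rest on 1 list was not tested. The same p-value recurs below from the same lists and regroupings and is not separate support.

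Each list held fewer distal bases than the distal share of the genome, 90.1% of known bases. The distal share of covered bases was 83.1% for ab8895, 87.6% for Active Motif 39635, 83.6% for Cell Signaling Technologies 5326 BF, 81.8% for EpiGentek A-4031-050 and 80.2% for Thermo Fisher 710795, against 83.1% for ab7766, 85.3% for Cell Signaling Technologies 9725, 57.3% for EMD Millipore 05-1338 and 78.8% for Thermo Fisher 710796. EMD Millipore 05-1338 had the smallest distal share of the 9 lists. The mean difference of 7.14 percentage points did not pass (exact permutation p = 0.23, adjusted p = 0.759) and was 0.862 points without that antibody. Within the number in the file names it was 10.6 points (exact permutation p = 0.037, adjusted p = 0.0864). The median distance of distal bases from a coding TSS was 30.7 to 52.1 kb in H3K4me1 lists and 30.5 to 42.6 kb in H3K4me2 lists.

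Piece width turned on 1 antibody, Active Motif 39635. The median piece was 963 bases wide for ab8895, 17809.5 for Active Motif 39635, 724 for Cell Signaling Technologies 5326 BF, 529 for EpiGentek A-4031-050 and 526 for Thermo Fisher 710795. In the H3K4me2 lists it was 723 bases for ab7766, 1210.0 for Cell Signaling Technologies 9725, 553 for EMD Millipore 05-1338 and 410.0 for Thermo Fisher 710796. Active Motif 39635 stood apart with few, long pieces: 49942, against 332068 to 552632 in the other H3K4me1 lists and 80716 to 439704 in the H3K4me2 lists. The N50, the width at which pieces this wide or wider hold 50% of the bases, was 7455, 48846, 5054, 3689 and 3192 bases for the H3K4me1 antibodies in the order above, against 4878, 7979, 1074 and 2138 bases for the H3K4me2 antibodies. The mean difference in N50 was 9630.0 bases (exact permutation p = 0.548, adjusted p = 0.822), 830.2 bases without Active Motif 39635, and 16300.2 bases within the number in the file names (exact permutation p = 0.037, adjusted p = 0.0864). For the median width the difference of 3386 bases (p = 0.77, adjusted p = 0.83, exact permutation) turned to -38.5 bases without that list.

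**Figure D1:**
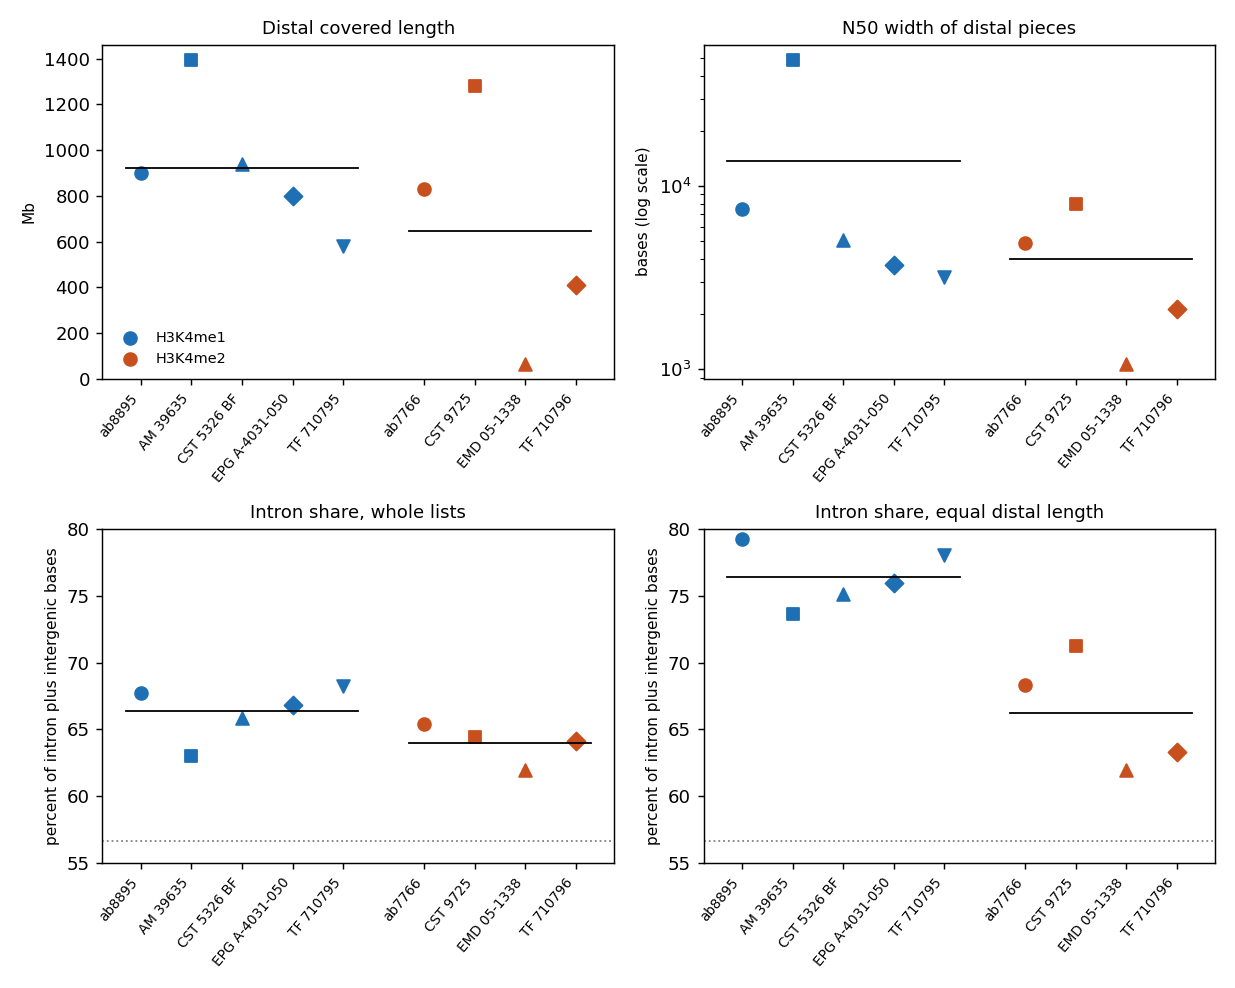
Distal covered length, N50 width (log axis) and intron share for each antibody, H3K4me1 in blue at left and H3K4me2 in orange at right, with black lines at the group means and a dotted line at the intron share of the whole distal territory (AM, Active Motif; CST, Cell Signaling Technologies; EPG, EpiGentek; EMD, EMD Millipore; TF, Thermo Fisher). The groups overlap in all panels except the last, where lists were cut to equal distal length and the 5 H3K4me1 points lie between 73.7% and 79.2%, above the 4 H3K4me2 points at 62.0% to 71.2%.

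Nesting of H3K4me2 inside H3K4me1 was measured in the 20 antibody pairs across the groups. The share of a H3K4me1 list inside a H3K4me2 list averaged 52.0%, between 3.46% and 96.0%. The opposite share, of H3K4me2 inside H3K4me1, averaged 78.5%, between 43.5% and 95%. In 14 pairs the H3K4me2 list was the more enclosed one, and the mean asymmetry was 26.5 percentage points (exact permutation p = 0.302, adjusted p = 0.759). Both shares of a pair are the same shared bases over the length of each list, so the longer list has the lower share by construction, and the asymmetry follows the lengths. The asymmetry was 8.00 points without EMD Millipore 05-1338, was 44.1 points without Cell Signaling Technologies 9725, and was 50.0 points within the number in the file names (exact permutation p = 0.037, adjusted p = 0.0864).

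EMD Millipore 05-1338 was enclosed to 88.0% by ab8895, 76.2% by Active Motif 39635, 91.8% by Cell Signaling Technologies 5326 BF, 95% by EpiGentek A-4031-050 and 92.1% by Thermo Fisher 710795. Thermo Fisher 710795, the shortest H3K4me1 list, was enclosed to 96.0% by Cell Signaling Technologies 9725 and enclosed 43.5% of it in turn. The Thermo Fisher pair, with lists of 579.6 Mb for H3K4me1 and 408 Mb for H3K4me2, had 53.5% of H3K4me1 inside H3K4me2 and 76.0% of H3K4me2 inside H3K4me1. Counted by pieces, at least 50% of the piece was inside for 54.5% of ab8895 pieces in the ab7766 list, and for 59.5% of ab7766 pieces in the ab8895 list. When each list was reduced to its highest-valued peaks with 63.4 Mb of distal bases, the length of the EMD Millipore 05-1338 list, both mean shares came to 41.2%. At equal length the shares of a pair are equal by construction, so no test of the asymmetry applies there.

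**Figure D2:**
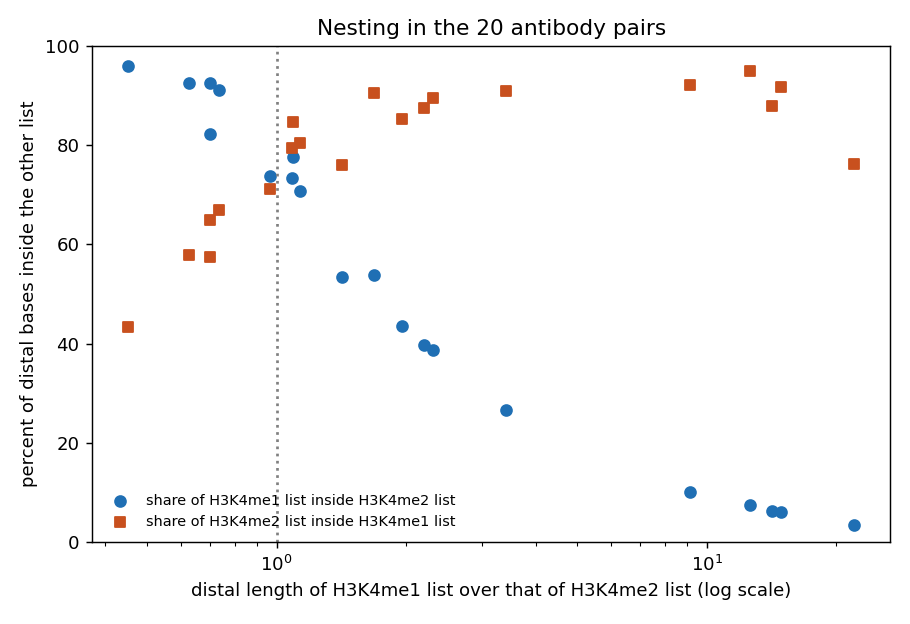
Percent of distal bases inside the other list for 20 antibody pairs, against the distal length of the H3K4me1 list over that of the H3K4me2 list (log axis). Blue circles are H3K4me1 lists inside H3K4me2 lists and orange squares H3K4me2 lists inside H3K4me1 lists. Which symbol of a pair is the higher is fixed by the lengths; the data set how high the pair lies, from 3.46% to 96.0% for circles and from 43.5% to 95% for squares.

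Base by base, the marks were stacked. Of the distal territory, 60.4% was in at least 1 H3K4me1 list, 51.7% in at least 1 H3K4me2 list, and 36.7% in none of the 9. All 5 H3K4me1 lists held 406 Mb (15.5% of the territory), and all 4 H3K4me2 lists held 54.3 Mb (2.07%), a figure bounded by the 63.4 Mb of the shortest list. The share of bases held by all 5 H3K4me1 lists was 4.11% where 1 H3K4me2 list was present, 27% where 2 were, 70.5% where 3 were and 83.8% where all 4 were. Bases in all 5 H3K4me1 lists but no H3K4me2 list were 0.157% of those 406 Mb, and bases in all 4 H3K4me2 lists but no H3K4me1 list were 0.154% of those 54.3 Mb. Of bases in any H3K4me1 list, 19.2% were in no H3K4me2 list, and 5.68% of bases in any H3K4me2 list were in no H3K4me1 list. These shares come from the same chromatin and depend on how many lists each group has, so they carry no test.

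**Figure D3:**
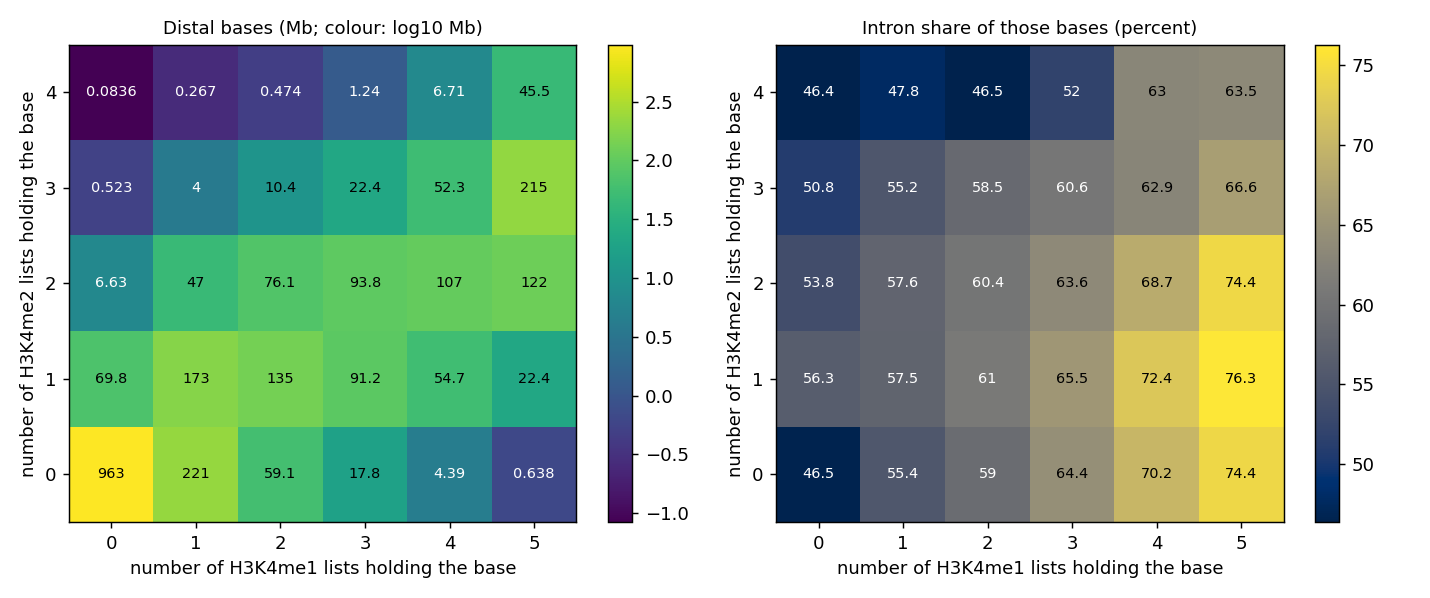
Distal bases by the number of H3K4me1 lists (x axis, 0 to 5) and H3K4me2 lists (y axis, 0 to 4) that hold them, with Mb at left (colour on a log10 scale) and the intron share of the intron plus intergenic bases at right. Bases in all 5 H3K4me1 lists have an intron share of 74.4% with no H3K4me2 list and 63.5% with all 4.

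Introns took more of the H3K4me1 lists than of the H3K4me2 lists, by a margin inside the spread of whole lists. Of intron plus intergenic distal bases, the intron share was 67.7% for ab8895, 63.0% for Active Motif 39635, 65.9% for Cell Signaling Technologies 5326 BF, 66.8% for EpiGentek A-4031-050 and 68.2% for Thermo Fisher 710795. It was 65.4% for ab7766, 64.4% for Cell Signaling Technologies 9725, 62.0% for EMD Millipore 05-1338 and 64.1% for Thermo Fisher 710796, against 56.7% of the territory. Each list exceeded the territory, and only Active Motif 39635 among the H3K4me1 lists fell inside the H3K4me2 range of 62.0% to 65.4%. The means were 66.3 ± 2.07% (SD, n = 5) for H3K4me1 and 64.0 ± 1.45% (SD, n = 4) for H3K4me2, which differed by 2.37 points (exact permutation p = 0.0873, adjusted p = 0.593). Leaving out Active Motif 39635 gave 3.20 points (exact permutation p = 0.0286, adjusted p = 0.4), and the comparison within the number in the file names 2.12 points (exact permutation p = 0.185, adjusted p = 0.259).

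At equal distal length the intron shares no longer overlapped. The strongest 63.4 Mb of each H3K4me1 list had 79.2% for ab8895, 73.7% for Active Motif 39635, 75.1% for Cell Signaling Technologies 5326 BF, 76.0% for EpiGentek A-4031-050 and 78.1% for Thermo Fisher 710795. The same length of H3K4me2 had 68.3% for ab7766, 71.2% for Cell Signaling Technologies 9725, 62.0% for EMD Millipore 05-1338 (its whole list) and 63.3% for Thermo Fisher 710796. The difference was 10.2 points with exact permutation p = 0.00794, the smallest that groups of 5 and 4 allow, and adjusted p = 0.0516 over 13 measures, short of 0.05. The distal share of covered bases parted in the same way at this length, with 69.0% to 79.0% in H3K4me1 lists and 49.2% to 67.8% in H3K4me2 lists (16.4 points, exact permutation p = 0.00794, adjusted p = 0.0516). At this length the EMD Millipore 05-1338 list entered whole, with 80716 pieces, and the other lists with 2658 to 15944. Within bases held by all 5 H3K4me1 lists, the intron share was 74.4%, 76.3%, 74.4%, 66.6% and 63.5% with 0, 1, 2, 3 and 4 H3K4me2 lists.

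Distal H3K4me3 sites, 10823 regions in at least 4 of the 8 H3K4me3 lists with a median width of 490.0 bases, were covered at their centre by most lists, and the lists differed at the flanks. H3K4me3 is the promoter state, and 17.2% of these sites lay within 1 kb of a TSS of a gene of any type, such as a non-coding RNA. At the site centre the H3K4me1 lists covered 88.4%, 82.8%, 89.9%, 95% and 89.1% of sites (antibodies in the opening order), and the H3K4me2 lists 94.7%, 97.0%, 98.3% and 96.1%. At 2 kb to either side the H3K4me1 lists covered 82.4%, 82%, 84.8%, 81.7% and 72.5%, and the H3K4me2 lists 83.5%, 92.4%, 19.2% and 64.2%. The drop from centre to flank was 5.95, 0.744, 5.10, 13.3 and 16.6 points for H3K4me1, against 11.3, 4.56, 79.2 and 31.9 points for H3K4me2. EMD Millipore 05-1338 held the site and little beside it, and the groups overlapped. The mean drop was 8.34 ± 6.45 points for H3K4me1 (SD, n = 5) and 31.7 ± 33.7 points for H3K4me2 (SD, n = 4), a difference of -23.4 points (exact permutation p = 0.127, adjusted p = 0.593), -7.58 points without EMD Millipore 05-1338 and -32.6 points within the number in the file names (exact permutation p = 0.037, adjusted p = 0.0864). Around the sites of the authors' H3K4me3 list named as corrected, the difference was 7.80 points, the other way (p = 0.159, adjusted p = 0.741, exact permutation). There ab7766 alone had -25.3 points and the other 8 antibodies lay between -2.46 and 5.89. The authors computed that list from 4 libraries, so it may not be independent of the lists compared, and the cause of the turn was not tested.

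**Figure D4:**
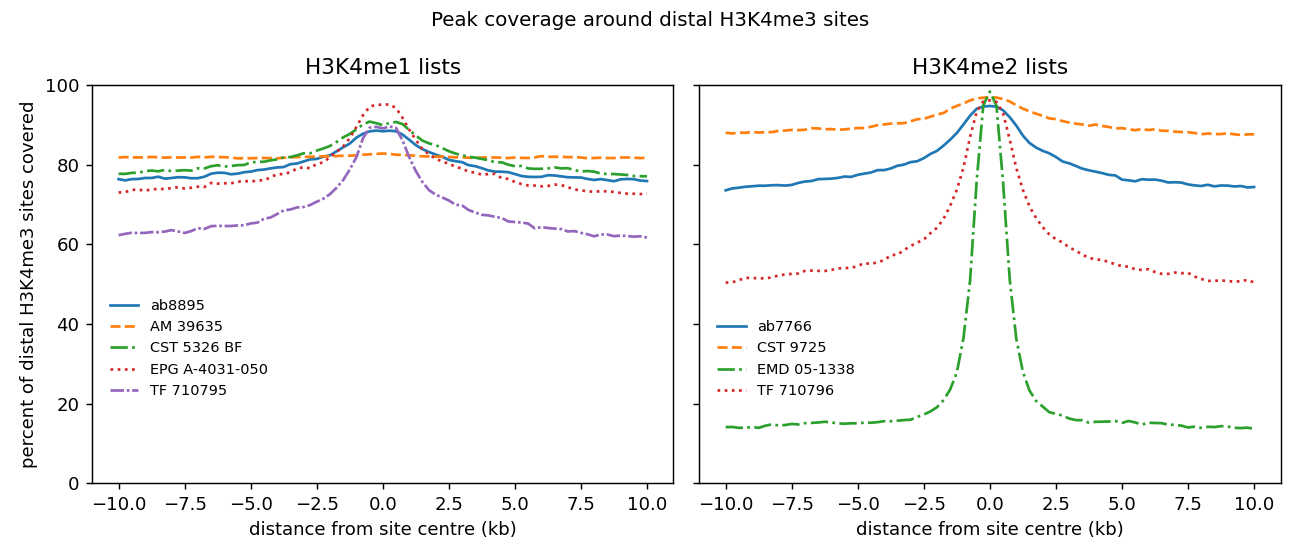
Percent of 10823 distal H3K4me3 sites under a peak (y axis) against the distance from the site centre in kb (x axis), H3K4me1 lists at left and H3K4me2 lists at right, 1 line an antibody. At the centre the lists range from 82.8% to 98.3%, and at 2 kb EMD Millipore 05-1338 has 19.2%.

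The share of distal bases inside those H3K4me3 regions was 0.836% for ab8895, 0.499% for Active Motif 39635, 0.809% for Cell Signaling Technologies 5326 BF, 1.01% for EpiGentek A-4031-050 and 1.29% for Thermo Fisher 710795, against 0.981% for ab7766, 0.649% for Cell Signaling Technologies 9725, 13.3% for EMD Millipore 05-1338 and 2.02% for Thermo Fisher 710796. EMD Millipore 05-1338 lay far above the others. The difference of the means, -3.34 points, did not pass (exact permutation p = 0.111, adjusted p = 0.593) and was -0.327 points without that antibody and -4.54 points within the number in the file names (exact permutation p = 0.037, adjusted p = 0.0864). With the corrected H3K4me3 list, which may not be independent of the lists compared, the difference was 0.221 points. At equal length the H3K4me1 lists had 3.29% to 4.65% and the H3K4me2 lists 4.38% to 13.3%, a difference of -4.96 points (exact permutation p = 0.0159, adjusted p = 0.0688).

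GC content was 41.5% to 43.4% in H3K4me1 lists and 42.2% to 46.0% in H3K4me2 lists, against 40.3% of the territory (difference -0.572 points, exact permutation p = 0.651, adjusted p = 0.828). H3K27me3, the Polycomb mark, was listed over 87.4% to 96.7% of H3K4me1 bases and 80.1% to 92.5% of H3K4me2 bases, but its list covered 69.3% of the territory. The H3K9me3 list covered 96.7% of the territory and 99.89% to 99.97% of the H3K4me lists, and neither share passed between the marks (adjusted p = 0.822 for both, exact permutation). Coverage of chromosomes 13, 14 and X together was 2.11% to 12.2% in H3K4me1 lists and 1.74% to 16.5% in H3K4me2 lists, against 23.8% to 60.2% and 2.51% to 53.3% of the other chromosomes. The cause of these low chromosomes was not tested.

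Within lists, the authors' value of a peak ranked distal peaks below the others. The mean percentile of wholly distal peaks minus that of the remaining peaks was -23.1 points for ab8895, -25.4 for Active Motif 39635, -19.9 for Cell Signaling Technologies 5326 BF, -16.3 for EpiGentek A-4031-050 and -14.6 for Thermo Fisher 710795, against -13.5 for ab7766, -21.0 for Cell Signaling Technologies 9725, -21.6 for EMD Millipore 05-1338 and -12.4 for Thermo Fisher 710796. All 9 lists shared the direction, and the groups did not part (difference -2.74 points, exact permutation p = 0.389, adjusted p = 0.778). At equal length the difference was 11.0 points, the other way. The peaks kept there were chosen by this same value, and EMD Millipore 05-1338 entered whole, so no test of the value applies at that length. Wider distal peaks had higher values: Spearman's rho between value and width, across peaks that share a library, was 0.40, 0.0412, 0.38, 0.484 and 0.57 for the H3K4me1 antibodies, against 0.308, 0.355, 0.645 and 0.433 for the H3K4me2 antibodies.

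H3K4me1 peaks that overlapped the EMD Millipore 05-1338 list ranked high in their own list. Overlap here means any shared base, which wide peaks meet more easily, and the part of width in these ranks was not tested. Their mean percentile was 44.1 points above that of the other distal peaks for ab8895, 28.5 for Active Motif 39635, 45.7 for Cell Signaling Technologies 5326 BF, 46.7 for EpiGentek A-4031-050 and 44.1 for Thermo Fisher 710795. Overlap with Thermo Fisher 710796 went with 7.20 to 17.3 points. Overlap with Cell Signaling Technologies 9725, the longest H3K4me2 list, went with -5.94 to 2.98 points. In the other direction, H3K4me2 peaks that overlapped Thermo Fisher 710795, the shortest H3K4me1 list, ranked above the rest in 3 lists. The difference was 19.9 points for ab7766, 24.5 for Cell Signaling Technologies 9725 and 17.4 for Thermo Fisher 710796, but -0.998 points for EMD Millipore 05-1338. H3K4me2 peaks that overlapped Active Motif 39635 ranked below those that did not, with differences of -19.8 points for ab7766, -14.4 for Cell Signaling Technologies 9725, -3.01 for EMD Millipore 05-1338 and -19.2 for Thermo Fisher 710796.

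The named loci, 12 in all, checked the cell type, from the erythroid controls of K562 to genes of other tissues. The 20.0 kb upstream of HBE1 that holds the beta-globin locus control region (chr11:5274945-5294944) was covered to 100% by ab8895, 98.4% by Active Motif 39635, 100% by Cell Signaling Technologies 5326 BF, 100% by EpiGentek A-4031-050 and 99.6% by Thermo Fisher 710795, against 94.7% by ab7766, 100% by Cell Signaling Technologies 9725, 60.8% by EMD Millipore 05-1338 and 94.6% by Thermo Fisher 710796. NPRL3, whose introns hold the alpha-globin enhancers, was covered to 86.6% to 100% by H3K4me1 and 15.2% to 97.9% by H3K4me2. The interval between HBS1L and MYB, a known erythroid enhancer cluster, had 92.8% to 99.6% with H3K4me1 and 22.7% to 100% with H3K4me2. Downstream of TAL1, an erythroid and stem cell factor, the ranges were 89.2% to 97.8% with H3K4me1 and 39.5% to 98.3% with H3K4me2. The far upstream region of LMO2, a partner of TAL1, had 93.6% to 100% with H3K4me1 and 11.3% to 100% with H3K4me2. At each of these loci, as at the others of the 12, the lowest H3K4me2 value was that of EMD Millipore 05-1338, the shortest list.

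Other loci were partly covered or nearly bare. The gene body of BCL11A, the repressor of fetal globin, had 50.1%, 99.4%, 39.1%, 22.9% and 13.9% with H3K4me1 and 25.5%, 77.0%, 0.977% and 6.64% with H3K4me2, in the opening order. RUNX1, a blood regulator, had 55.8% to 98.9% with H3K4me1 and 6.15% to 92.8% with H3K4me2. A region 100 to 120 kb upstream of GATA2, the factor of early progenitors, was at 0% in the Active Motif 39635 list against 53.2% to 97.4% in the other H3K4me1 lists and 4.24% to 97.9% in H3K4me2 lists. PAX5, the B cell factor, had at most 12.9% with H3K4me1 and 11.6% with H3K4me2, and GRIN2B, a neuronal glutamate receptor subunit, at most 2.53% with H3K4me1 and 2.89% with H3K4me2. Coverage was not limited to blood genes: upstream of AHSG, which encodes the liver protein fetuin-A, the ranges were 89.7% to 100% with H3K4me1 and 11.8% to 100% with H3K4me2, and upstream of ALB, serum albumin, 30.7% to 100% and 0% to 80.7%.

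**Figure D5:**
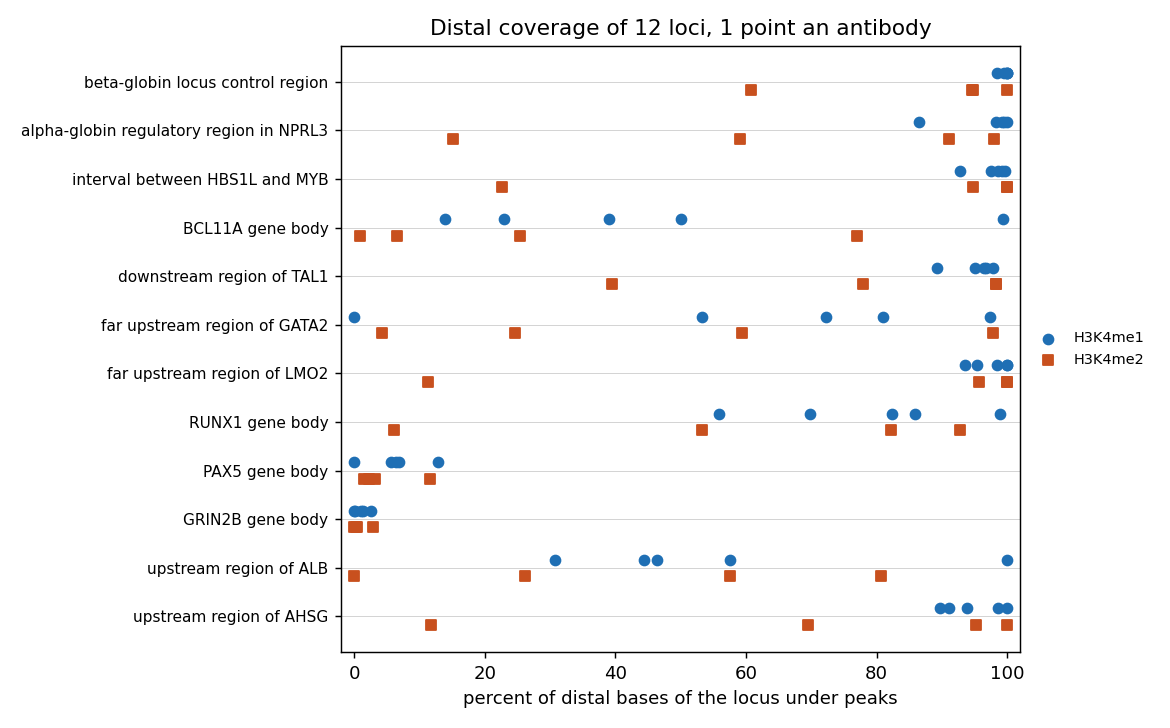
Percent of the distal bases of 12 loci under peaks, 1 point an antibody, H3K4me1 as blue circles above H3K4me2 as orange squares. The globin, HBS1L to MYB, TAL1 and LMO2 loci lie near full coverage in H3K4me1 lists, and PAX5 and GRIN2B stay under 13% in both marks. EMD Millipore 05-1338, the shortest list, is the lowest orange square at each of the 12 loci.

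Around 19960 protein-coding genes, the distal bases within 100 kb of the TSS were compared gene by gene. Coverage averaged 56.5 ± 9.82% for H3K4me1 (SD, n = 5) and 38.2 ± 29.2% for H3K4me2 (SD, n = 4), and the median difference was 20.5 points. The H3K4me1 mean was the higher at 18277 genes (91.6%) and the lower at 1465 (7.34%). With each list's median over genes subtracted, the median difference was -5.02 points. That subtraction removes the overall level of each list by construction, so this value cannot show which mark covered more. By limma with Benjamini-Hochberg adjustment, 0 genes passed in either direction (0% called), and at an unadjusted p under 0.05 there were 127 higher (0.636%) and 0 lower (0%). With list medians subtracted, 245 of 19960 were higher and 707 lower at that level, and 0 passed after adjustment. On simulated loci with a spread taken from these lists, the adjusted test called 7.0% of those changed by 20 points. It called 17.5% at 60 points and 43.5% at 90 points. The simulation gave each locus independent noise with 1 spread pooled over both groups, set no bounds on the percent and changed 200 of 19960 loci. Its rates are thus not the power of the test on these lists, whose groups differ in spread. Nor does 0 genes called show equal coverage. Leaving out Cell Signaling Technologies 9725 gave 7607 genes at the unadjusted level and still 0 after adjustment, and leaving out EMD Millipore 05-1338 gave 0 and a median difference of 6.69 points. The groups did not overlap at 1 gene with higher H3K4me1 (0.00501%) and 3 with lower H3K4me1 (0.015%). NBPF11, of a segmentally duplicated primate gene family, had 2.61% to 5.90% with H3K4me1 and 0% to 1.55% with H3K4me2. CT45A6, a testis antigen gene in a multicopy cluster, had 0% to 2.65% with H3K4me1 and 4.35% to 6.77% with H3K4me2. FAM47C had 0% with H3K4me1 and 0.544% to 1.37% with H3K4me2, and TRIM49 0% to 0.164% and 0.168% to 0.256%. These 4 loci were nearly bare, and copies of such genes may share reads.

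Gene lists of blood and other tissues were then read against all genes, for which the H3K4me1 mean exceeded 50% at 62.1% of loci and the H3K4me2 mean at 33.4%. For 26 erythroid genes the mean coverage was 74.3% with H3K4me1 and 52.0% with H3K4me2, with 22 genes over 50% in H3K4me1 and 20 in H3K4me2. The median difference was 24.8 points, against 20.5 for all genes. SLC4A1, the anion exchanger of the red cell membrane, had 81.1% to 96.4% with H3K4me1 and 7.46% to 96.6% with H3K4me2 (36.6 points, limma adjusted p = 0.498). KLF1, the erythroid master factor, had 78.7% to 100% with H3K4me1 and 11.2% to 98.9% with H3K4me2. GATA1 and ALAS2, a haem synthesis gene, lie on the poorly covered X chromosome, and Active Motif 39635 had 16.0% around GATA1, against 68.4% to 82.1% in the other H3K4me1 lists and 12.7% to 92.8% in H3K4me2 lists.

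Over all genes, the H3K4me1 mean of plain coverage, with no list median subtracted, was the higher at 91.6%. It was the higher at 24 of 26 erythroid genes, 19 of 19 writers and erasers of H3K4 methylation, 14 of 15 myeloid, 21 of 22 lymphoid, 22 of 23 housekeeping, 39 of 39 HOX, 15 of 18 liver, 38 of 42 developmental and 15 of 19 neural genes. Neighbouring genes share bases, as in the HOX clusters.

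The other lists ranged widely. The 19 writers and erasers of H3K4 methylation had 72.6% with H3K4me1 and 47.7% with H3K4me2, a median difference of 30.7 points. Among them NCOA6, a subunit of the MLL3 and MLL4 complexes, had 68.1% to 100% with H3K4me1 and 3.69% to 97.0% with H3K4me2. CXXC1, a subunit of the SET1 complexes, had the narrowest gap of that list, with means of 18.2% for H3K4me1 and 15.9% for H3K4me2. The 15 myeloid genes had 70.2% and 48.8% for H3K4me1 and H3K4me2, and the 22 lymphoid genes 61.7% and 42.6%. TCF7, a T cell factor, had the widest gap of the named genes, with 63.9% to 100% for H3K4me1 and 0.955% to 97.2% for H3K4me2 (38.5 points, limma adjusted p = 0.498). Housekeeping genes (23) had 65.8% and 45.2%, HOX genes (39) 63.2% and 41.8%, and liver genes (18) 53.0% and 37.3%. The least covered were the developmental transcription factors (42), with 37.7% and 25.2%, and the neural genes (19), with 35.7% and 25.1%. By the difference of the group means, the extremes of the myeloid list were SPI1, the myeloid master factor, with 83.0% for H3K4me1 and 48.5% for H3K4me2, and CTSG, a neutrophil protease, with 2.54% for H3K4me1 and 2.85% for H3K4me2. The lowest lymphoid difference was that of BCL11B, a T cell factor, with 3.62% for H3K4me1 and 5.95% for H3K4me2. Among housekeeping genes the extremes were the glycolytic genes GPI, with 84.2% for H3K4me1 and 47.9% for H3K4me2, and PGK1, with 4.79% for H3K4me1 and 6.67% for H3K4me2. In the HOX list they were HOXB13, with 78.8% for H3K4me1 and 48.8% for H3K4me2, and HOXA11, with 39.4% for H3K4me1 and 23.7% for H3K4me2. Liver genes ran between APOA2, an apolipoprotein gene, with 86.3% for H3K4me1 and 54.5% for H3K4me2, and TF, which encodes transferrin, with 11.4% for H3K4me1 and 13.6% for H3K4me2. Developmental genes ran between LHX3, with 78.5% for H3K4me1 and 47.7% for H3K4me2, and SOX1, with 0.698% for H3K4me1 and 1.58% for H3K4me2. Neural genes ran between CAMK2A, a synaptic kinase gene, with 79.4% for H3K4me1 and 43.8% for H3K4me2, and SLC17A6, a glutamate transporter gene, with 5.31% for H3K4me1 and 7.02% for H3K4me2. No difference at these genes passed limma's adjusted test.

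Relative to all genes, no list's difference passed the exact permutation test, the smallest adjusted p being 0.457 over 9 lists.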

How the data were processed

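The deposited peak lists hold a start, an end and a value per peak. That value, a signal in the fourth column, was made by the authors and is read here as their calibrated modification density, although no header states its unit, so groups were compared by its ranks within a list, with the distal minus other median of each list as an alternative; values printed for single windows are not compared across lists. Bowtie2, SAMtools, bedtools and MACS2 are listed without versions, and GRCh38/hg38 as the build, per the submitters' processing notes; no source used here says which tool did which step. Depth is unknown, so no counting interval could be given.

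Distal bases lay more than 5 kb from the coding TSS of GENCODE 44, on hg38 with assembly gaps left out. Peaks of a list were merged and cut to that territory (Python 3.11.15, NumPy 2.4.6, SciPy 1.17.1). Each antibody gave 1 value. Groups were compared by the exact two-sided permutation test with Benjamini-Hochberg adjustment over 14 measures, and gene loci by limma 3.58.1 in R 4.3.3, after a test on simulated data. Loci had at least 20 kb of distal bases within 100 kb of the TSS.

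The rule for named genes took loci whose groups did not overlap, the 2 highest and 2 lowest differences of each gene list, fixed loci and the 3 highest-ranked windows of each class. The text gives the highest and the lowest difference of each list, except the lowest erythroid one, and markers (GATA1, ALAS2, KLF1) besides. The reference has no soft-masking, so the plan to leave out repeat-masked windows could not be applied. 1 window that overlaps an exon was not printed, and some windows and loci are not reported here. The members and lists were chosen with earlier results of these data known. Alternatives covered the TSS set and distance, merging, overlap, value, list length, the number in the file names, chromosomes, windows and each antibody left out. Counting assembly gaps was added after seeing the data.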

Additional observations from a re-analysis of the deposited data

Results flagged for a closer look

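Of 26 groups of values checked, 7 held a library far from the others of its group. Chance gives about 1 in 20 for a single check. The checks share the same libraries and related measures, so the count cannot be set against that rate. Active Motif 39635 stood apart among the H3K4me1 antibodies in its median piece width of 17809.5 bases, its N50 of 48846 bases, its median TSS distance of 52.1 kb and its GC content of 41.5%. EMD Millipore 05-1338 stood apart among the H3K4me2 antibodies in its 80716 pieces and in the 13.3% of its distal bases inside H3K4me3 regions. Its share inside the H3K9me3 list, 99.89%, was flagged as low, against 99.96% to 99.97% in the other H3K4me2 lists. The EMD Millipore 05-1338 library had 12 amplification cycles, against 8 in the others, and the part of this in its values was not tested.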

How the results depend on the processing

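Of 376 alternative values, 357 kept their direction and their side of the threshold, 19 turned direction, and 0 crossed the threshold. The smallest adjusted p of any setting was 0.0516. With so few antibodies, a single measure could not cross in the permutation tests. With peaks at or above the median value, intron share reached the smallest p possible, 0.00794, and its adjusted p was 0.111 (exact permutation). Keeping the side of the threshold is thus no sign of robustness. For gene loci the value counted was the number of genes that passed. The median difference of -5.02 points with list medians subtracted is therefore not among the 19. With peaks at or above the median value, the difference turned to -2.65 kb in TSS distance, 1.36 points in the value's percentile and -0.00195 points in H3K9me3 share. At equal distal length it turned to -21894.3 pieces, 11.0 points in the value's percentile and -0.422 points in H3K27me3 share. Covered length has no value there by construction, and the turn in percentile cannot be read, since the peaks were chosen by that value. The difference of medians of the value was 0.258. With the corrected H3K4me3 list, which may not be independent of the lists compared, the centre minus flank difference was 7.80 points and the H3K4me3 share 0.221 points. The cause was not tested.

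Leaving out each antibody in turn gave -38.5 to 4282.38 bases for median width, -2.74 to 2.81 kb for TSS distance, -50220.7 to 114362 for pieces, -0.989 to 0.273 points for GC, -0.784 to 3.34 points for H3K27me3, -0.00311 to 0.0262 points for H3K9me3, -1.60 to 4.62 points for the HOX list and -0.102 to 1.54 points for the lymphoid list. No paired analysis was possible because the labels carry no replicate numbers that link an H3K4me1 library to an H3K4me2 library; the comparison within the number in the file names, given beside the results, groups libraries by a number of unknown meaning and pairs none. Unknown read depth limits all lengths: a shallow library may list fewer bases.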
